A study of Homo sapiens with 6 samples.

Results

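The genes described here are 60 genes of mitosis: the cyclins and kinases that start it, the spindle checkpoint, the centromere and kinetochore, condensin, and the spindle and cytokinesis machinery. They were chosen by symbol from a list that leaves out the kinesins named KIF, though it holds the kinesin CENPE, and all 60 were found once each among the 60419 genes of the deposited count table. RNA came from 12Z, a human cell line derived from endometriosis and immortalised, labelled wild type and grown with 10% charcoal-stripped serum. The 3 Myrrh libraries came from cells given an extract of myrrh, a tree resin, at 100 µg/mL in DMSO for 12 h, and 3 DMSO libraries came from cells given the vehicle alone. Each library was made from 1.5 µg of total RNA. A single line is a limited model of a lesion, and whether replicates came from different cultures is not stated in the labels, so that p-values measure only the spread between these libraries, which may be technical.

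Mitosis is started by CDK1 bound to a B-type cyclin, which WEE1 and PKMYT1 hold back and the CDC25 phosphatases release. The spindle checkpoint then delays the anaphase-promoting complex (APC/C) until every kinetochore is attached, after which CDC20 directs the APC/C to destroy securin and cyclin B, and separase parts the sister chromatids. Most of these genes are transcribed late in the cell cycle, under the MuvB complex with MYBL2 and FOXM1, and are low in cells that do not divide. The endometrial lining renews itself each cycle by cell division, and the same genes are used as signs of proliferation in endometrial tissue and in lesions.

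The libraries held 22454783 to 27588151 estimated counts. The 60 genes had 2286 to 65299 counts over the 6 libraries, so none was near the limit of detection. The epithelial keratins KRT8 and KRT18 were high, CDH1 had 27 counts in all, and the mesenchymal VIM stood at 2709 CPM in DMSO and 1992 CPM in Myrrh (CPM is a count relative to library size, here scaled by TMM factors). On plain library totals, the summed CPM of the 8 epithelial markers was 1867 to 1950 in DMSO and 1195 to 1288 in Myrrh, and that of the 8 mesenchymal markers 11863 to 11939 and 3685 to 3899. A few abundant genes make up most of these sums, such as COL1A1 at 5725 CPM in DMSO and 762 CPM in Myrrh, and not all members moved alike. Of the epithelial markers 5 fell, KRT7 (0.53) and EPCAM (1.13) rose in log2 fold change and CDH1 was not tested. Of the mesenchymal markers 6 fell, and CDH2 (0.25) and FN1 (0.31) rose. None of 5 endothelial markers passed the filter on low counts, with a summed CPM of 0.507 to 0.841 in DMSO and 0.178 to 0.408 in Myrrh and CDH5 at 0. Of 6 leukocyte markers 3 passed, with sums of 35.6 to 36.7 CPM in DMSO and 47.9 to 60.3 CPM in Myrrh, mostly from CD68. PTPRC stood at 0.584 and 0.0737 CPM, and CD3E was at 0. Mitochondrially encoded mRNA made up 13.1% to 13.8% of counts in DMSO and 4.22% to 5.17% in Myrrh. The part of the epithelial, mesenchymal and mitochondrial changes in the results below was not tested.

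Most of the 60 mitotic genes were lower after the extract. With p-values from edgeR (quasi-likelihood) adjusted by the Benjamini-Hochberg method over 16395 tested genes, 53 of the 60 fell, 6 rose and 1 was not called at an adjusted p of 0.05. Over all genes tested, 39.1% fell and 39.3% rose. Because the 60 were chosen with earlier results of these data known, comparisons with all genes are a description and no independent support. At least a 2-fold fall was reached by 24 of the 60, against 18.0% of all genes, and none rose by that much, against 11.3% of all genes. Among genes of at least 5 CPM in 3 libraries, a level that every one of the 60 exceeds on average, 42.3% fell, 42.4% rose and 13.8% fell at least 2-fold. The median log2 fold change of the 60, Myrrh against DMSO throughout, was -0.80, against -0.02 for all genes. The share of all counts that fell on the 60 was 0.829%, 0.818% and 0.839% in the DMSO libraries and 0.441%, 0.415% and 0.448% in the Myrrh libraries. In 52 genes every Myrrh library lay below every DMSO library, a pattern found in 40.2% of all genes. In 6 genes every Myrrh library lay above, against 40.1% of all genes, and MYBL2 and FZR1 overlapped. In bulk RNA, fewer cells in G2 and mitosis and less of these mRNAs per cell cannot be told apart.

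**Figure D1:**
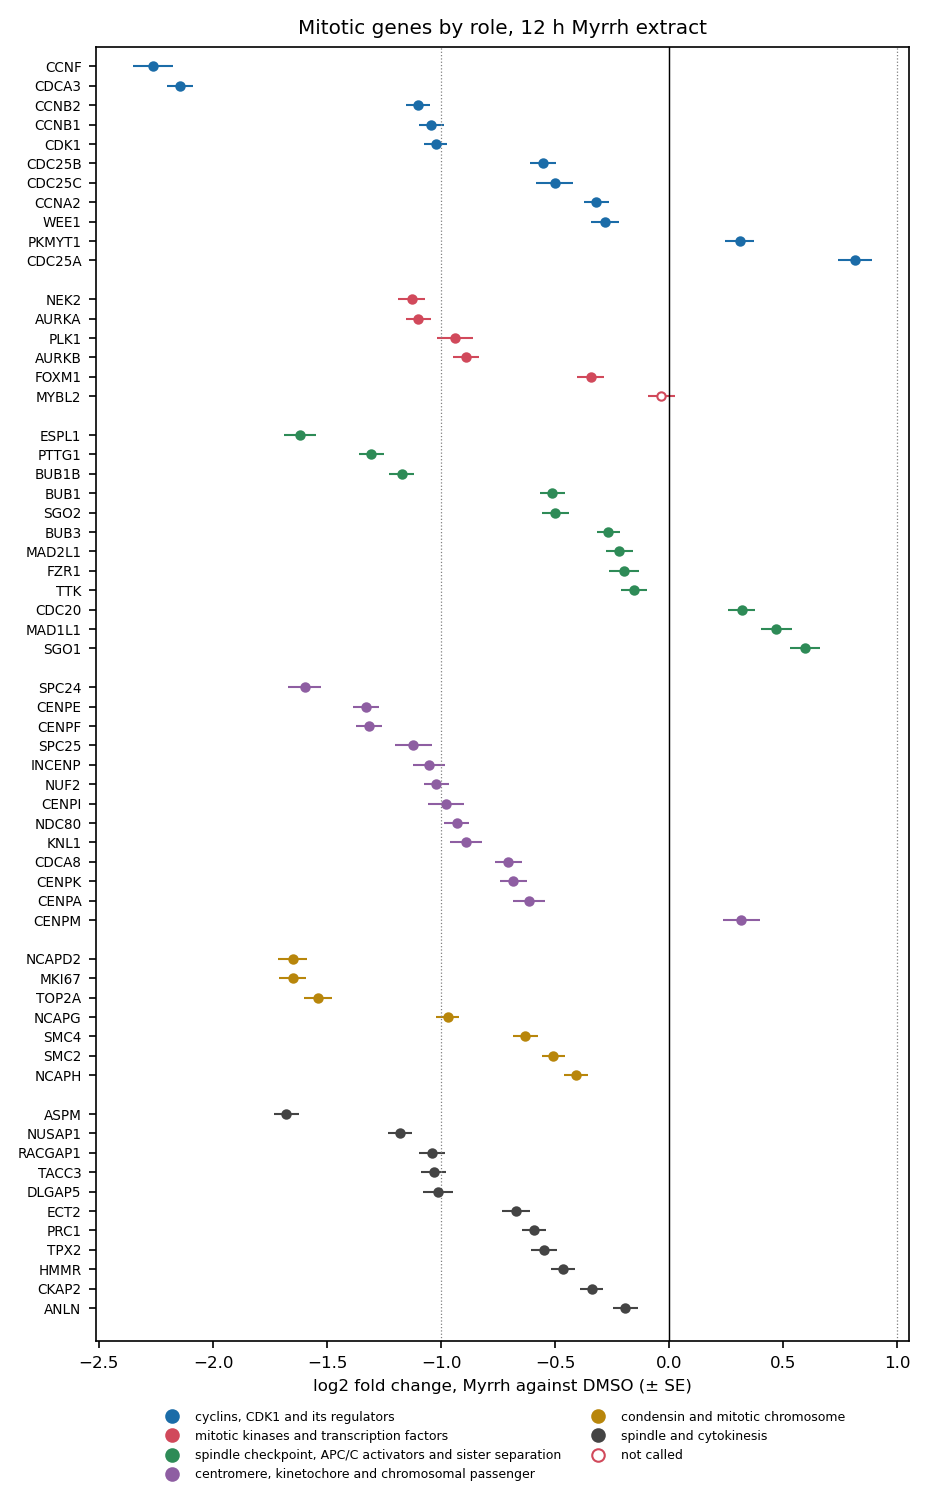
Log2 fold change, Myrrh against DMSO, of the 60 mitotic genes (points) with its standard error (bars), sorted within 6 role groups shown by colour; dotted lines mark 2-fold changes and an open point a gene that was not called. The points run from -2.26 for CCNF to 0.81 for CDC25A, and 6 filled points lie right of 0.

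Late cell cycle promoters often carry a cell cycle homology region (CHR), which MuvB binds, downstream of CCAAT boxes bound by NF-Y. The promoters of 6 genes are shown because they cover the range of response: CCNB1, CCNB2 and CCNF, which fell, and CDC20, SGO1 and CDC25A, which rose. Each is the 250 bases before the RefSeq start on GRCh38.p14, 5′ to 3′ on the strand of the gene, with capitals marking the matches on either strand. A CHR was searched as TTTGAA and as its variant with A in place of G, read as TTTAAA. The other searches were for CCAAT boxes and for the E2F letters TTTCGCGC and TTTGGCGC. A match on the other strand appears as its reverse complement. They lie at chr5:69166900-69167149 (CCNB1, plus strand), chr15:59104896-59105145 (CCNB2, plus), chr16:2429197-2429446 (CCNF, plus), chr1:43358731-43358980 (CDC20, plus), chr3:20186207-20186456 (SGO1, minus) and chr3:48188418-48188667 (CDC25A, minus).
CCNB1: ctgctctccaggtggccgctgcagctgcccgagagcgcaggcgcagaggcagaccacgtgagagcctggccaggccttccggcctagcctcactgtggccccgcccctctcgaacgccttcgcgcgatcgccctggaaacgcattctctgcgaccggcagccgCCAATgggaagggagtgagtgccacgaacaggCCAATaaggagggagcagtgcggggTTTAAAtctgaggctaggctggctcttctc
CCNB2: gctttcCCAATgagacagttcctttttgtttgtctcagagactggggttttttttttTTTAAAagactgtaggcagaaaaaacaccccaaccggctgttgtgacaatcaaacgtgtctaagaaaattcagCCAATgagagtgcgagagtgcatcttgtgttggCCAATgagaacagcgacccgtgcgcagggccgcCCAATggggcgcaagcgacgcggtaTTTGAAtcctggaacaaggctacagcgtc
CCNF: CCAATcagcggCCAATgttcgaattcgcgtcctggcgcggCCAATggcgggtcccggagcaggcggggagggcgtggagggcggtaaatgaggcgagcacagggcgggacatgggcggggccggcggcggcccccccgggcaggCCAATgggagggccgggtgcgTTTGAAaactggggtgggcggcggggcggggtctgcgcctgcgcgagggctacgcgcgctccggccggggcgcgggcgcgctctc
CDC20: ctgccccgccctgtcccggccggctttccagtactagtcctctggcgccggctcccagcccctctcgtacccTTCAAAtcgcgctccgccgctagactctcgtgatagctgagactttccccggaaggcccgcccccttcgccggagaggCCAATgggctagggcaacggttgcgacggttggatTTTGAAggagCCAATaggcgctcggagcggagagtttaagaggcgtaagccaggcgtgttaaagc
SGO1: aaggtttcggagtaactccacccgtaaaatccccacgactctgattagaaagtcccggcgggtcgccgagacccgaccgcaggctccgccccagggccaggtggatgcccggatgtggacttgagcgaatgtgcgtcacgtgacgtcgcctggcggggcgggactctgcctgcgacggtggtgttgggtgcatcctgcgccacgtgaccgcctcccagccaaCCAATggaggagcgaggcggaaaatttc
CDC25A: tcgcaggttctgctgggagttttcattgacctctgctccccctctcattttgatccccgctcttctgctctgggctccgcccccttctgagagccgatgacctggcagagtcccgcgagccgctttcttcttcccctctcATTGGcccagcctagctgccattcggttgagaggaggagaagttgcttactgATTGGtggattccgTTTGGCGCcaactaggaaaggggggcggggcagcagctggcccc

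The CCNB1 promoter holds CCAAT boxes that begin 87 and 55 bases before the start and a CHR 30 bases before it, and CCNB2 has the same order at 87, 54 and 29 bases, with further CCAAT boxes at 244 and 120 bases and a CHR at 193 bases. CCNF, with the lowest fold change of the 60, has 4 CCAAT boxes and a CHR 85 bases before its start. CDC20 holds the same letters in a different order, with CCAAT boxes at 100 and 55 bases and CHR letters at 178 and 65 bases, and its mRNA rose. No CHR lies downstream of both CCAAT boxes in CDC20, unlike in CCNB1 and CCNB2. The order of the letters was read in the printed promoters only, and whether it bears on the response was not tested. SGO1 has 1 CCAAT box, 28 bases before its start, and no CHR letters, while CDC25A has 2 CCAAT boxes, at 110 and 58 bases, and E2F letters at 44 bases. These distances hold for the RefSeq start only. The gene annotation GENCODE release 29 begins CCNB1, CCNB2, CCNF, CDC20 and SGO1 further upstream, within the printed bases.

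Of the 60 genes, 50 matched a RefSeq promoter entry, and the 40 with a single start were searched from 250 bases before to 50 after it. The others were left out of these counts because they had several starts (10 genes) or no match (10 genes). CHR letters were found in 28 of the 40 windows (70.0%), against 24.9% of 22114 single-start windows of the same length over the genome. At least 2 CCAAT boxes were found in 21 (52.5% against 11.4%), and both features together in 16 (40.0% against 2.91%). E2F letters were found in 2 (5.0% against 1.13%). In 3 of the 40 windows 2 matches overlapped. Among the 20 genes that fell at least 2-fold, 17 had CHR letters and 12 had both features. Among the 15 that fell by less, 10 had CHR letters and 3 had both, and among the 5 that rose or were not called CDC20 alone had either the CHR or both. The median log2 fold change was -1.11 over the 16 genes with both features and -0.96 over 12 with CHR letters but fewer than 2 CCAAT boxes. It was -0.68 over 5 with a CCAAT pair but no CHR and -0.32 over 7 with neither a CHR nor a CCAAT pair. In the same order the values ran from -2.26 to 0.32, -2.15 to -0.19, -1.60 to 0.81 and -1.03 to 0.59, so the classes overlapped widely. These are matches of letters, given as a description with no test. Late cell cycle promoters often carry them, so the excess over all windows comes with the choice of genes and is no result about the extract.

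**Figure D2:**
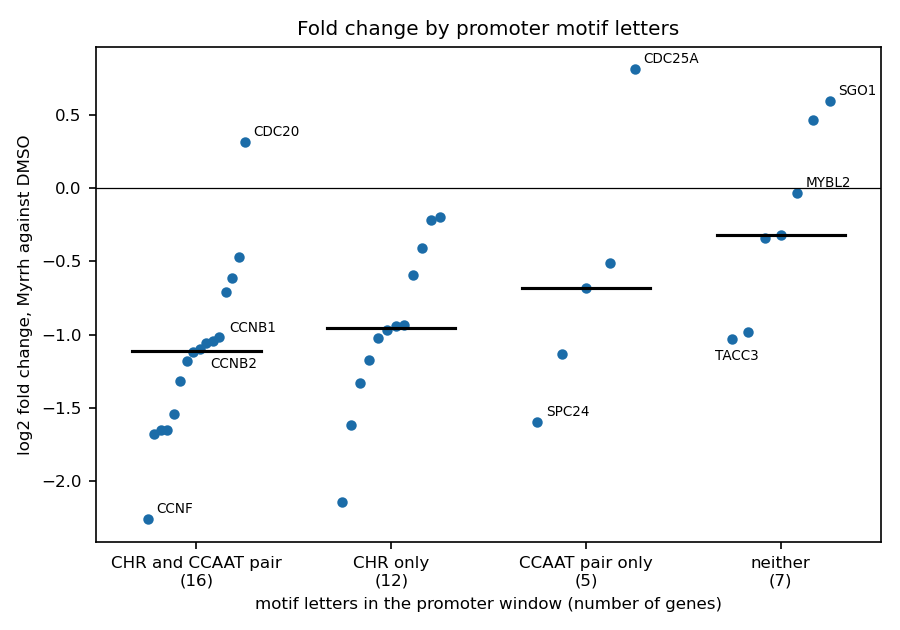
Log2 fold change, Myrrh against DMSO, of the 40 genes with 1 RefSeq start (points), by the letters in their promoter window: CHR letters together with at least 2 CCAAT boxes, either one alone, or neither; bars are medians. The medians are -1.11, -0.96, -0.68 and -0.32, and CDC20 is the single point above 0 in the first column.

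The cyclins, CDK1 and its regulators split, with 9 of 11 lower and 2 higher (median -0.55). CCNF, an F-box protein that marks substrates for destruction in G2, had 49.1, 47.9 and 47.7 CPM in DMSO and 10.2, 8.11 and 11.8 CPM in Myrrh, a log2 fold change of -2.26 ± 0.09 (SE), or 4.80-fold lower (edgeR adjusted p = 3.08e-16). CDCA3, a mitotic entry factor that is itself an APC/C substrate, went from 134, 128 and 126 CPM to 27.4, 29.6 and 30.7 CPM (-2.15 ± 0.06). They were left at 20.8% (CCNF) and 22.6% (CDCA3) of their DMSO level, the lowest shares of the 60 genes. CCNB1, the main mitotic cyclin, had 209.9, 204 and 205 CPM in DMSO and 95.3, 98.3 and 107 CPM in Myrrh (-1.04 ± 0.05). CDK1, its kinase, had 153, 155 and 154 CPM and then 73.0, 80.3 and 74.3 CPM (-1.02 ± 0.05). The DMSO and Myrrh libraries were far apart for both, and the second B-type cyclin, CCNB2, moved by nearly the same amount (-1.10 ± 0.05). Within libraries, the log2 ratio of CCNB1 to CCNB2 was 1.01 ± 0.04 (SD, n = 3) in DMSO and 1.06 ± 0.10 in Myrrh, a difference of 0.06 (exact permutation test, two-sided, p = 0.7). CCNA2, the cyclin of S phase and early G2, fell less, from 67.1, 64.6 and 67.3 to 52.2, 52.3 and 55.0 CPM (-0.32 ± 0.05). The log2 ratio of CCNA2 to CCNF rose from 0.46 ± 0.03 to 2.42 ± 0.24 with no overlap between the groups (exact permutation p = 0.1, the smallest that 3 against 3 allows). The pairs used for ratios, here and below, were chosen after their values were seen. A separation of their ratios restates the fold changes of the genes and is no further support.

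The CDC25 phosphatases did not move together. CDC25A, which acts from the start of S phase onward, had 14.9, 14.2 and 13.5 CPM in DMSO and 25.6, 23.8 and 25.4 CPM in Myrrh (0.81 ± 0.07, edgeR adjusted p = 1.9e-10). It had the highest fold change of the 60 genes, at 1.76-fold, while the G2 phosphatases CDC25B (-0.55 ± 0.06) and CDC25C (-0.50 ± 0.08) fell. The log2 ratio of CDC25A to CDC25C went from -0.34 ± 0.08 to 0.98 ± 0.10 (exact permutation p = 0.1, the smallest possible). The 2 kinases that inhibit CDK1 also parted. PKMYT1, the membrane-bound one, rose from 56.4, 58.3 and 48.9 to 65.9, 65.6 and 71.1 CPM (0.31 ± 0.06), and WEE1, the nuclear one, fell by 0.28 ± 0.06 on the log2 scale. The rise of PKMYT1 was not called on the authors' log2(TPM + 1) values, which take transcript length into account (0.10, limma adjusted p = 0.221).

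In the group of mitotic kinases and transcription factors all 4 kinases fell, and of the transcription factors 1 fell and 1 was not called (group median -0.91). TTK and BUB1, which are also kinases, were placed with the checkpoint genes below. NEK2, which separates centrosomes, had 68.5, 66.0 and 65.1 CPM in DMSO and 29.8, 31.0 and 30.4 CPM in Myrrh (-1.13 ± 0.06). AURKA, the centrosomal Aurora kinase, went from 108, 113 and 118 to 51.9, 51.5 and 55.1 CPM (-1.10 ± 0.05). PLK1, which promotes entry and centrosome maturation, had 105, 101 and 104 CPM and then 55.8, 45.8 and 60.7 CPM (-0.94 ± 0.08). The 3 kinases were each lower in every Myrrh library, with the Myrrh libraries further apart for PLK1, and AURKB, the kinase of the chromosomal passenger complex, followed at -0.89 ± 0.06. FOXM1, the forkhead factor of G2 genes, fell little, from 167.3, 168 and 176 to 135, 121 and 146 CPM (-0.34 ± 0.06). MYBL2, the MuvB partner made from late G1, had 152, 154 and 155 CPM in DMSO and 141, 142 and 166.2 CPM in Myrrh (-0.04 ± 0.06, edgeR adjusted p = 0.583). Its Myrrh libraries lay on both sides of the DMSO libraries. That it was not called depends on scaling, since with plain library totals, a setting that shifts the median of all genes by -0.14, MYBL2 was called lower (-0.18, edgeR adjusted p = 0.00831). Over all alternatives its adjusted p ran from 0.00831 to 0.993, and its sign turned, uncalled, without Myrrh replicate 1 (0.012) and without Myrrh replicate 2 (0.0024).

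Genes of the spindle checkpoint, the APC/C activators and sister separation had the smallest median, -0.24, with 9 of 12 lower and 3 higher. At least a 2-fold fall was seen in 3 of them. ESPL1, separase, had 71.8, 74.1 and 66.8 CPM in DMSO and 22.6, 20.8 and 26.0 CPM in Myrrh (-1.62 ± 0.07). PTTG1, securin, which holds separase inactive, went from 137, 134 and 131 to 52.7, 58.3 and 51.4 CPM (-1.31 ± 0.05). BUB1B, the checkpoint pseudokinase BubR1, fell by 1.17 ± 0.05 on the log2 scale. Other checkpoint genes fell less, with BUB1 at -0.51 ± 0.06, BUB3 at -0.27 ± 0.05, MAD2L1 at -0.22 ± 0.06 and the kinase TTK at -0.15 ± 0.06 (edgeR adjusted p = 0.0143). FZR1, which replaces CDC20 on the APC/C at mitotic exit, was called at -0.20 ± 0.07, although its groups overlapped. The call of TTK was lost without DMSO replicate 3 (edgeR adjusted p = 0.0877), Myrrh replicate 1 (0.064) or Myrrh replicate 3 (0.0749), and with every gene of at least 1 count tested (-0.12, edgeR adjusted p = 0.0651). That of FZR1 was lost without Myrrh replicate 1 (0.0861). On log2(TPM + 1) neither these 2 nor MAD2L1 was called (limma adjusted p = 0.157, 0.189 and 0.101).

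The 3 genes of this group that rose were CDC20, MAD1L1 and SGO1. CDC20, the APC/C activator that the checkpoint restrains, had 158, 153 and 149 CPM in DMSO and 188, 175 and 210.4 CPM in Myrrh (0.32 ± 0.06, edgeR adjusted p = 3.42e-05). On log2(TPM + 1) its difference was 0.16 and was not called (limma adjusted p = 0.0582). The groups did not overlap in CPM, while in TPM the lowest Myrrh library (185) lay below the highest DMSO library (193). CDC20 mRNA moved against the mRNAs of securin and cyclin B1, whose proteins are its substrates, and protein was not measured. The log2 ratio of CDC20 to PTTG1 went from 0.20 ± 0.01 to 1.82 ± 0.22 and that to CCNB1 from -0.43 ± 0.03 to 0.93 ± 0.08 (exact permutation p = 0.1 for each). MAD1L1, which recruits MAD2 to unattached kinetochores, had 26.3, 27.9 and 27.7 CPM and then 34.9, 38.0 and 40.7 CPM (0.47 ± 0.07). SGO1, shugoshin, which guards centromeric cohesion in mitosis, rose from 21.9, 22.03 and 21.0 to 30.6, 33.7 and 33.8 CPM (0.59 ± 0.07, edgeR adjusted p = 9.72e-09). Its relative SGO2 fell by 0.50 ± 0.06, and the log2 ratio of SGO1 to SGO2 went from -1.38 ± 0.12 to -0.29 ± 0.13, again without overlap (exact permutation p = 0.1). The within-library ratios given here belong to 11 pairs chosen after their values were seen, and 10 of them gave an exact permutation p of 0.1, or 0.11 with Benjamini-Hochberg adjustment.

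**Figure D3:**
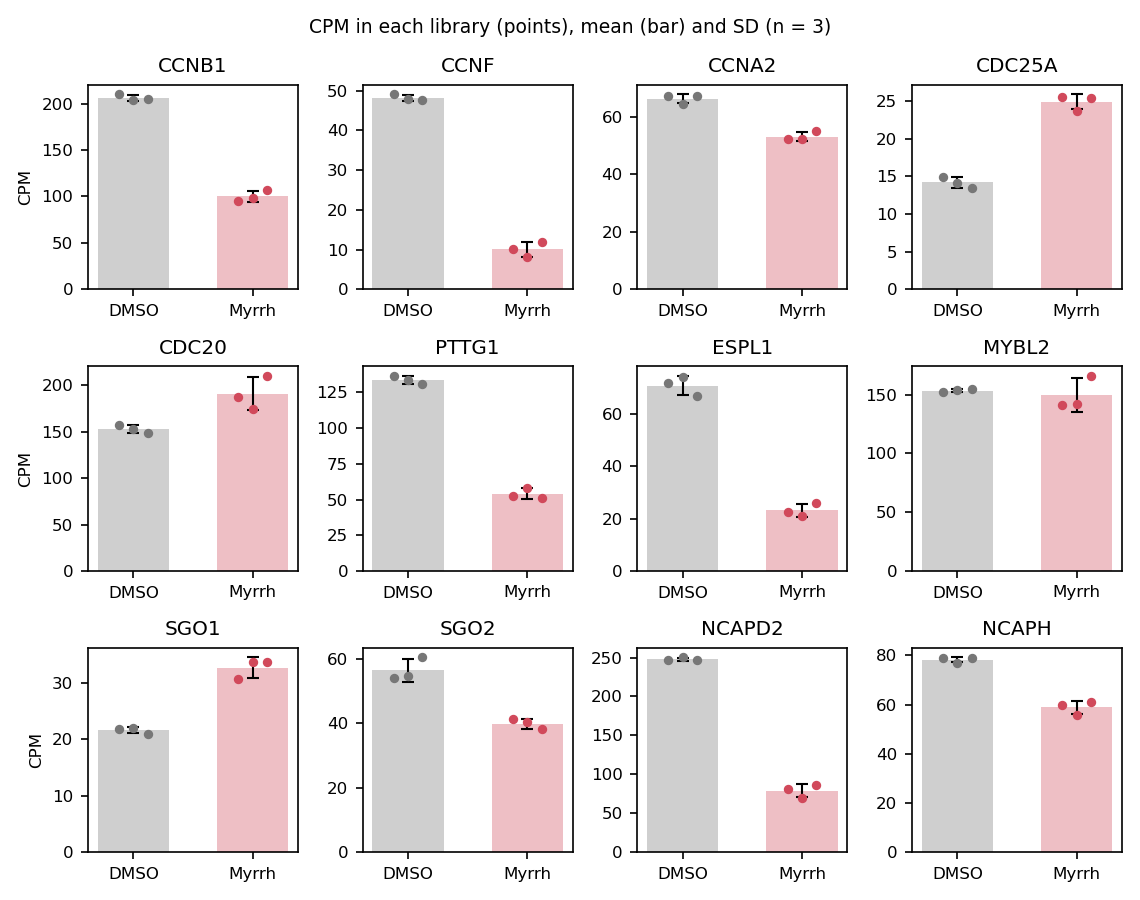
CPM of 12 mitotic genes in each library (points), with the group mean (bar, from 0) and SD (error bar, n = 3), DMSO in grey and Myrrh in red. The Myrrh libraries of CDC25A, CDC20 and SGO1 lie above all DMSO libraries, those of MYBL2 lie on both sides, and those of the other 8 lie below.

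At the centromere and kinetochore 12 of 13 genes fell and 1 rose (median -0.98). SPC24, the inner end of the NDC80 complex that grips microtubules, had 43.1, 44.1 and 40.9 CPM in DMSO and 13.8, 15.5 and 13.1 CPM in Myrrh (-1.60 ± 0.07). CENPE, the kinetochore motor that aligns chromosomes, went from 78.2, 83.0 and 82.5 to 33.5, 31.7 and 31.7 CPM (-1.33 ± 0.06). All 4 subunits of the NDC80 complex fell, SPC25 by 1.12 ± 0.08, NUF2 by 1.02 ± 0.06 and NDC80 itself by 0.93 ± 0.05 on the log2 scale, and the log2 ratio of NDC80 to SPC24 rose from 1.09 ± 0.07 to 1.76 ± 0.10. CENPF, a large G2 protein of the outer kinetochore, fell by 1.32 ± 0.06 from a mean of 477 CPM. The scaffold KNL1 fell too (-0.89 ± 0.07), and in the chromosomal passenger complex INCENP (-1.05 ± 0.07) fell more in value than CDCA8, borealin (-0.71 ± 0.06). CENPA, the histone variant that marks the centromere, had 33.7, 32.9 and 31.9 CPM and then 20.3, 20.6 and 23.5 CPM (-0.61 ± 0.07).

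The exception was CENPM, which had 12.6, 14.2 and 14.8 CPM in DMSO and 17.3, 17.4 and 17.1 CPM in Myrrh (0.32 ± 0.08, edgeR adjusted p = 0.00105). That call was lost when plain library totals replaced the TMM factors (0.17, edgeR adjusted p = 0.0612). CENPM binds CENPH, CENPI and CENPK in a group of the inner kinetochore. CENPI (-0.98 ± 0.08) and CENPK (-0.68 ± 0.06) fell, while CENPH, which is not among the 60, rose (0.36 ± 0.07). The log2 ratio of CENPM to CENPK went from -2.08 ± 0.14 to -1.07 ± 0.06, with no overlap (exact permutation p = 0.1).

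The 7 genes of condensin and the mitotic chromosome all fell (median -0.97), by unequal amounts within 1 complex. NCAPD2, a HEAT-repeat subunit of condensin I, had 247, 250.3 and 246 CPM in DMSO and 81.2, 69.6 and 86.0 CPM in Myrrh (-1.65 ± 0.06). NCAPH, the kleisin that closes the condensin I ring, had 78.8, 76.9 and 78.7 CPM and then 59.9, 55.7 and 60.9 CPM (-0.41 ± 0.05). SMC2, one of the 2 ATPase arms, went from 154, 155 and 162 to 111, 106 and 114 CPM (-0.51 ± 0.05). The other arm SMC4 (-0.63 ± 0.05) and the subunit NCAPG (-0.97 ± 0.05) lay between these. The log2 ratio of NCAPH to NCAPD2 rose from -1.67 ± 0.03 to -0.42 ± 0.09 (exact permutation p = 0.1). MKI67, the Ki-67 protein that coats mitotic chromosomes and serves as a proliferation marker, had 329, 312 and 326 CPM in DMSO and 103, 94.6 and 111 CPM in Myrrh (-1.65 ± 0.06). TOP2A, the topoisomerase that untangles sister DNA, fell nearly as far (-1.54 ± 0.06).

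All 11 genes of the spindle and cytokinesis fell as well (median -0.67). ASPM, which focuses spindle poles, had 240.0, 233 and 240.3 CPM in DMSO and 78.7, 70.7 and 73.2 CPM in Myrrh (-1.68 ± 0.05). NUSAP1, which bundles spindle microtubules, went from 242, 245 and 248 to 103, 112 and 109.6 CPM (-1.18 ± 0.05). At the other end were CKAP2, a spindle pole protein, with 107, 100.4 and 105 CPM and then 84.7, 78.2 and 83.3 CPM (-0.34 ± 0.05), and ANLN. ANLN, anillin, the scaffold of the contractile ring, had 368, 360.4 and 377 CPM in DMSO and 327, 332 and 308 CPM in Myrrh (-0.19 ± 0.05), the smallest fall among these 11. In the cytokinesis pathway the value was larger for RACGAP1 (-1.04 ± 0.06), a subunit of centralspindlin, than for the RhoA activator ECT2 (-0.67 ± 0.06) and the midzone bundler PRC1 (-0.59 ± 0.05). The Aurora A activator TPX2 (-0.55 ± 0.06) and its partner HMMR (-0.47 ± 0.05) fell less in value than TACC3 (-1.03 ± 0.05) and DLGAP5 (-1.01 ± 0.07), which stabilise spindle fibres.

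Levels per transcript length, in TPM undone from the authors' log2(TPM + 1), put the genes in a different order in the 2 groups. In DMSO the highest was PTTG1 at 312 ± 7.57 TPM (SD, n = 3), followed by SMC4 at 251 ± 10.6, TOP2A at 224 ± 3.41 and CCNB1 at 220.1 ± 1.74, and the last of these did not differ from TOP2A by more than their SDs together. CDC20, at 185 ± 6.39 TPM, was in place 9 of 60. In Myrrh CDC20 was in place 1 at 208 ± 21.0 TPM, with SMC4 at 156 ± 5.76 and PTTG1 at 132 ± 4.16 next. TOP2A moved from place 3 to place 14. CDC25A had the lowest TPM in DMSO, 5.19 ± 0.211, and 10.3 ± 1.36 in Myrrh, where CCNF was lowest. The 59 called genes had the same direction in TPM as in counts, while MYBL2, which was not called, had mean TPM of 78.8 in DMSO and 79.1 in Myrrh. The difference in log2(TPM + 1) departed from the log2 fold change of counts by -0.32 (WEE1) to 0.48 (KNL1).

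**Figure D4:**
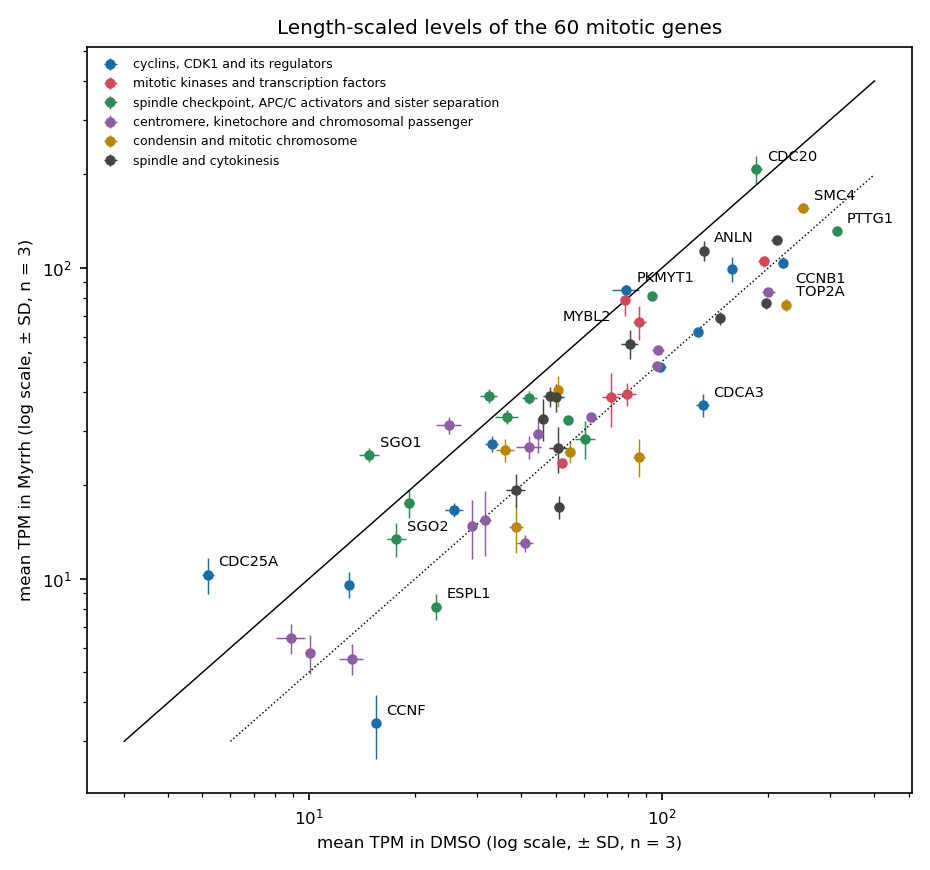
Mean TPM of the 60 mitotic genes in Myrrh against DMSO on log axes, with SD over 3 libraries (bars) and colours for role groups; the solid line marks equal levels and the dotted line a 2-fold fall. CDC20 is the highest point at 208 TPM in Myrrh, and CCNF lies furthest below the dotted line.

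Other mitotic genes moved in both directions. Of 115 such genes 50 fell, 41 rose and 24 were not called, with a median of -0.07, close to the 39.1% lower and 39.3% higher over all genes. Other genes of the spindle and cytokinesis fell in 15 of 20 cases (median -0.92), and other kinetochore genes in 15 of 30, with 10 higher (median -0.19). PSRC1, which binds spindle microtubules, had 77.3, 72.5 and 67.8 CPM in DMSO and 17.2, 17.7 and 18.0 CPM in Myrrh (-2.04 ± 0.07). KNTC1, which brings dynein to the kinetochore as part of the RZZ complex, fell by 1.74 ± 0.06 and LMNB1, the nuclear lamin, by 1.65 ± 0.05 on the log2 scale. The other RZZ subunits ZW10 (1.05 ± 0.07) and ZWILCH (0.17 ± 0.05) rose. PSRC1, KNTC1 and LMNB1 had the lowest values among called genes of at least 5 CPM in the list.

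Genes that rose were found in the same list. MIS12, the platform that joins the inner kinetochore to the NDC80 complex, had 23.9, 26.2 and 25.2 CPM in DMSO and 65.2, 67.8 and 65.0 CPM in Myrrh (1.39 ± 0.06), while of its partners PMF1 rose (0.24 ± 0.06), DSN1 fell (-0.72 ± 0.05) and NSL1 was not called (0.08 ± 0.07). HASPIN, the histone kinase that recruits the passenger complex, went from 6.06, 6.59 and 7.14 to 16.2, 12.1 and 17.6 CPM (1.21 ± 0.12). MNAT1, the assembly factor of the CDK-activating kinase, rose by 1.13 ± 0.06, and its partners CCNH (0.82 ± 0.07) and CDK7 (0.53 ± 0.06), which are also parts of the general transcription factor TFIIH, rose with it. Of the 5 subunits of the MuvB core 4 rose, LIN9, LIN37, LIN52 and LIN54 by 0.67 to 0.81, and RBBP4, which many chromatin complexes share, fell by 0.16 ± 0.05. The direction of RBBP4 turned on log2(TPM + 1), where its difference was 0.14. In condensin II and cohesin 9 of 16 genes rose and 4 fell. APC/C genes rose in 5 of 17 (29.4%) and fell in 7 (41.2%), with FBXO5, the APC/C inhibitor EMI1, at -1.63 ± 0.06. For comparison, 39.3% of all genes tested rose and 39.1% fell, so the APC/C share that fell was close to the background. The counts in these short lists are a description, and neither list was tested against all genes. The survivin gene BIRC5, the remaining subunit of the passenger complex, fell (-0.36 ± 0.05).

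**Figure D5:**
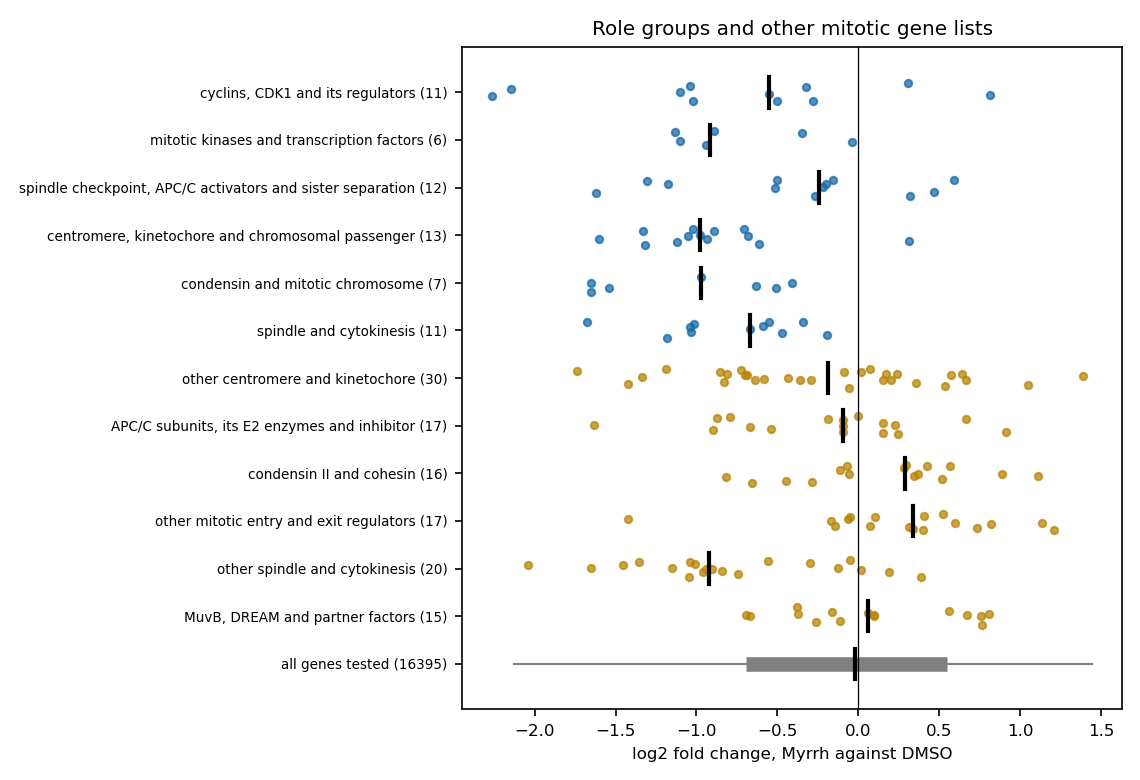
Log2 fold change, Myrrh against DMSO, of single genes (points) in the 6 role groups of the 60 genes (blue) and 6 lists of other mitotic genes (ochre), with medians (black bars) and the number of genes in brackets; for all genes tested the thick bar spans percentiles 25 to 75 and the thin line 5 to 95. The medians of the blue groups run from -0.98 to -0.24, and that of all genes is -0.02.

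Replicates were close. The coefficient of variation of the 60 genes had a median of 2.57% in DMSO and 5.34% in Myrrh. Myrrh replicate 2 held the lowest Myrrh value for 28 of the 60 genes and Myrrh replicate 3 the highest for 38. The 3 Myrrh libraries had medians of -0.80, -0.86 and -0.74 (log2, against the DMSO mean), so all lay well below the DMSO libraries, which ran from -0.01 to 0.01. In 15 genes a count was not whole in at least 1 library, since reads were split between genes. Whether the counting used strand is not stated in these sources, and 17 of the 60 overlap a tested gene on the opposite strand, which has at least 20% of the CPM of its neighbour in 10 cases. Among these are CDC25C with FAM53C (59.4 CPM), CCNA2 with EXOSC9 (51.5 CPM) and PKMYT1 with PAQR4 (43.9 CPM). Only reads from the shared bases, 578 for CCNA2 and EXOSC9, could be given to the wrong gene. Their number was not measured, so the values of these genes are uncertain by an unknown amount. CENPA overlaps SLC35F6 on the same strand over 16943 bases (87.0 CPM, log2 fold change 1.89), and PRC1 overlaps AC068831.7 on the same strand (34.1 CPM, log2 fold change -1.83). On GRCh38 with GENCODE release 29, CCNF lies on chromosome 16 at 2429394 to 2458854 with 17 exons in its longest transcript, CCNB1 on chromosome 5 at 69167010 to 69178245 with 9, CDC20 on chromosome 1 at 43358955 to 43363203 with 10, SGO1 on chromosome 3 at 20160593 to 20186292 with 8, and CDC25A on chromosome 3 at 48157146 to 48188402 with 15.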

How the data were processed

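Total RNA from 12Z cells was sequenced in 3 DMSO and 3 Myrrh libraries. The authors deposited estimated counts per gene, not scaled between libraries, and log2(TPM + 1) values per gene. The submitters' processing notes list STAR, RSEM 1.3.1 and GRCh38. The annotation, the trimming and the use of strand were not given in the sources used here. Groups and replicate numbers came from sample titles. Estimated counts were rounded, filtered with filterByExpr (16395 of 60419 genes kept, all 60 members among them), scaled with TMM factors (1.05 in DMSO, 0.933 to 0.973 in Myrrh) and tested with edgeR 4.0.16 (glmQLFit, robust, two-sided, no block, R 4.3.3), the Benjamini-Hochberg method over all tested genes and a threshold of 0.05. A standard error is the log2 fold change over the square root of F. Alternatives used DESeq2 1.42.0, limma 3.58.1 on log2(TPM + 1), other scalings and filters, a replicate block, unrounded counts and each library left out. The test was checked on simulated counts in which few genes changed, in random directions. That check does not cover the scaling under changes as wide as those seen here. Within groups, counts differed by 3.84 to 9.00 chi-square units per degree of freedom, more than sampling noise, so each was counted as 1 sample. Gene positions came from GENCODE release 29 and promoters from RefSeq (GRCh38.p14). The members, role groups and pathway lists were chosen with earlier results of these data known. Values per library are given for the lowest and highest 2 fold changes of each role group, members that rose or were not called, and 6 genes named in the rule (CDK1, CCNB1, PLK1, FOXM1, MYBL2 and MKI67); of other pathway genes, the 3 lowest and 3 highest called with at least 5 CPM are named, and genes of a described complex were added after their values were seen.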

Additional observations from a re-analysis of the deposited data

How the results depend on the processing

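Of the 60 genes, 53 kept their direction and side of the threshold under all 15 alternatives. Members called lower numbered 50 to 54 and members called higher 4 to 6, and 50 to 53 of those called lower in each alternative were among the 53 reported. The exceptions were MYBL2, TTK, FZR1, MAD2L1, CENPM, CDC20 and PKMYT1. MYBL2 was called lower with upper quartile factors (-0.16), library totals (-0.18) and a filter of 5 CPM in 3 libraries (-0.13), and its value ran from -0.10 to 0.012 with each replicate left out, turning sign without Myrrh replicate 1 (0.012) and Myrrh replicate 2 (0.0024). The cause was not tested. On log2(TPM + 1) the falls of TTK, FZR1 and MAD2L1 and the rises of CDC20 and PKMYT1 were not called. The median of the 60 moved from -0.80 to -0.92 with upper quartile factors, -0.94 with library totals, -0.90 with the 5 CPM filter and -0.75 on log2(TPM + 1); the first and second of these settings shift the median of all genes by -0.13 and -0.14. Leaving out each replicate in turn gave a median of -0.82 to -0.78 and 51 to 53 members lower. Same-numbered libraries of the 2 groups did not deviate together (r = -0.06, -0.0045 and 0.04 over genes). No pairing by number was visible, but 3 libraries a group cannot exclude one. With the replicate number as a block 53 members fell, 6 rose, the median was -0.80, and 12782 genes were called in place of 12854. The smallest called change among the 60 was that of TTK (-0.15 ± 0.06), and 3 libraries a group limit how small a change the test can call.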
